A study of Mus musculus with 12 samples.

Results

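Natural killer (NK) cells and the other innate lymphoid cells of the mouse liver are described here from single-cell RNA libraries of whole liver from fetuses at E16.5 and from pups 3 days after birth (P3). The cells were chosen by their transcripts. A barcode, the tag that stands for 1 captured cell, was kept where it held at least 1000 unique molecular identifiers (UMIs, each counting 1 captured transcript) and at most 15% mitochondrial UMIs. It was taken as an NK or innate lymphoid cell where it carried Nkg7, at least 1 of Ncr1, Klrb1c, Klre1 and Il2rb, fewer than 2 UMIs of Cd3d, Cd3e and Cd3g together, no Cd79a and fewer than 10 UMIs of the granule genes Elane, Mpo and Prtn3. This gate took 402 of 184493 passing barcodes, 32 of 113376 at E16.5 and 370 of 71117 at P3. The levels of these 12 genes chose the cells and are given only as a description.

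NK cells are lymphocytes without rearranged antigen receptors. They kill target cells with perforin and granzymes and secrete interferon gamma and chemokines, under control of activating and inhibitory lectin receptors of the NK gene complex. In the mouse liver they share the sinusoids with a related population, type 1 innate lymphoid cells (ILC1), which is known for Itga1 and Cxcr6 where circulating NK cells carry Itga2 and Eomes. The transcription factors T-bet (Tbx21), Eomes, Id2 and Runx3 are known to support these lineages.

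The study took livers from crosses of mice carrying the Nodder allele of Jag1 (Jag1Ndr), a ligand of Notch receptors and a model of Alagille syndrome, and names 2 individuals each of Jag1+/+, Jag1Ndr/+ and Jag1Ndr/Ndr at both ages. All animals come from Jag1Ndr/+ parents, no agent was given, and Jag1Ndr/Ndr pups at P3 were recognised by jaundice. Livers were digested with enzymes, with an extra enzyme at E16.5 only, dead cells were removed on magnetic columns, and no sort for lymphocytes was made, so the age of the animals cannot be told apart from the digestion or from the separate gene lists of the E16.5 and P3 files. The 12 labelled samples held 9 different libraries. At E16.5, the sample labelled Jag1+/+ replicate 2 and that labelled Jag1Ndr/+ replicate 2 held the same 23166 barcodes with a summed difference of 0 UMIs, and they were counted once, as the E16.5 shared library. The other E16.5 libraries were Jag1+/+ replicate 1, Jag1Ndr/+ replicate 1 and Jag1Ndr/Ndr replicates 1 and 2. At P3, library A (labelled Jag1+/+ replicate 1) and library B (labelled Jag1+/+ replicate 2) were also present under other genotype labels, so their genotype is unclear. Library C is what the sample labelled Jag1Ndr/Ndr replicate 1 held beyond the 19927 barcodes it shared with library A, and library D was labelled Jag1Ndr/+ replicate 1. No gated barcode was shared between libraries. The libraries held 75745209 to 258642858 UMIs, with a median of 2961 to 9256 per passing barcode. The labels do not place the replicates in separate litters or runs, and p-values below measure the spread between these libraries.

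Promoter sequence is shown for 3 genes, because T-box factors and RUNX factors are known regulators of the lineage: Nkg7, a granule membrane gene that every gated barcode carries by the rule, and the effector genes Gzma and Prf1. Each run is the 250 bases before the start of the gene, in the direction of transcription, from RefSeq on GRCm38.p6. Capitals mark the letters AGGTGT (T-box) and TGTGGT (RUNX) on either strand, so that ACACCT and ACCACA are their opposite-strand forms. The windows are chr7:43436888-43437137 (plus strand) for Nkg7, chr13:113100982-113101231 (minus strand) for Gzma and chr10:61297586-61297835 (plus strand) for Prf1.
Nkg7: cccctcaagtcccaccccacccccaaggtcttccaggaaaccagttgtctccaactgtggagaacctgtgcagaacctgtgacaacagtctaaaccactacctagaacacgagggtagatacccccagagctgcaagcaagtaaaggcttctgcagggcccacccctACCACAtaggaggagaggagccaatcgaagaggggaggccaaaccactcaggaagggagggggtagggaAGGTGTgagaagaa
Gzma: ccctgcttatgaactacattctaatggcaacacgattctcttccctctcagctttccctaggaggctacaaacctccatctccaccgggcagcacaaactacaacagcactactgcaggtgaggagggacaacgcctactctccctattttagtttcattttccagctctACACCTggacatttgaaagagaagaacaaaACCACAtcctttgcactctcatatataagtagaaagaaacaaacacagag
Prf1: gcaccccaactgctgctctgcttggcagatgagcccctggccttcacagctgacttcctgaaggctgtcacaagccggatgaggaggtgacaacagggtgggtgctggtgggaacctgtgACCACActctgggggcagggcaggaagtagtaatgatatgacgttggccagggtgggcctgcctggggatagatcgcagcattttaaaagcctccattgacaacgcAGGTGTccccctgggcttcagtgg
The T-box letters stood 14 bases before the start in Nkg7, 80 in Gzma and 24 in Prf1. The RUNX letters stood 83, 50 and 130 bases before it, respectively. Among 32851 promoters of the same length, 11.8% held the T-box letters and 14.0% the RUNX letters. Of 43 genes of the gate, cytotoxic, signalling and lectin lists with a promoter, 7 held the T-box letters and 24 the RUNX letters, where 13.6% and 15.9% of all 27025 genes did. The 3 promoters shown all hold both and do not stand for the lists. These matches describe the sequence and show no binding.

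Gated cells were rare at both ages and more frequent at P3 in every library. They made up 0.01585% (3 cells) of passing barcodes in Jag1+/+ replicate 1, 0.0582% (12 cells) in the E16.5 shared library, 0.02067% (6 cells) in Jag1Ndr/+ replicate 1, 0.01634% (3 cells) in Jag1Ndr/Ndr replicate 1 and 0.03026% (8 cells) in Jag1Ndr/Ndr replicate 2. At P3 they made up 0.3395% (73 cells; exact binomial 95% interval 0.2662 to 0.4266) in library A, 0.6666% (117 cells; 0.5516 to 0.7983) in library B, 0.7588% (114 cells; 0.6263 to 0.9108) in library C and 0.3874% (66 cells; 0.2997 to 0.4926) in library D. Libraries B and C were high and A and D low, and the lowest P3 library lay above the highest E16.5 library. The means were 0.538% ± 0.206 (SD, n = 4) at P3 and 0.0283% ± 0.0177 (SD, n = 5) at E16.5, a ratio of 19.0. The two-sided exact permutation p was 0.0159, the smallest that 126 splits of 9 libraries can give. Intervals cover counting error only.

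**Figure D1:**
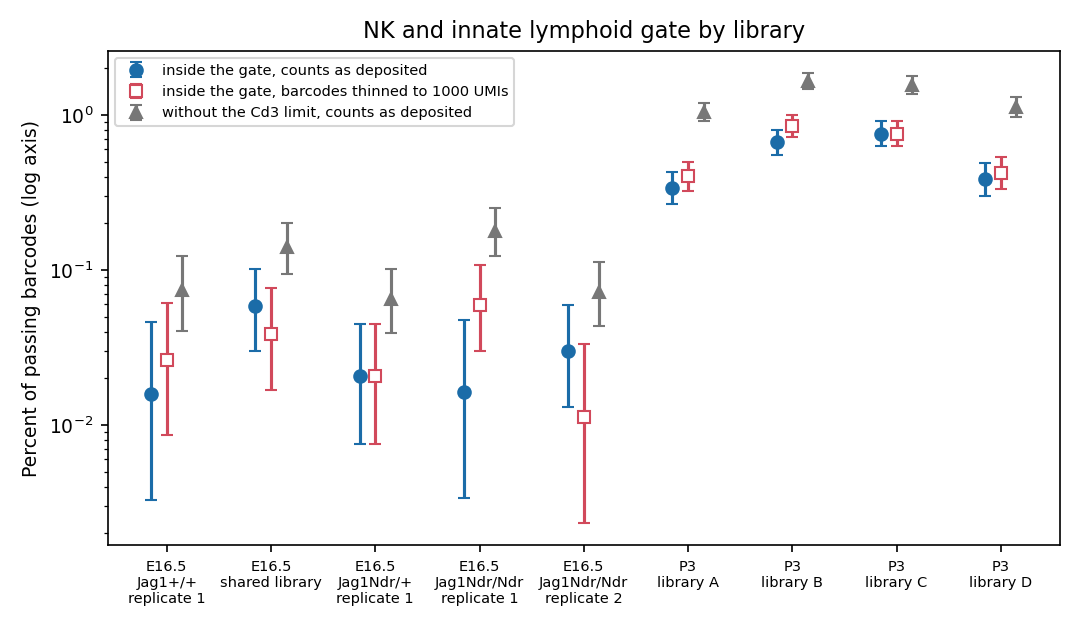
Percent of passing barcodes inside the gate (log axis) in the 5 E16.5 and 4 P3 libraries, with exact binomial 95% intervals, for counts as deposited (filled circles), barcodes thinned to 1000 UMIs (open squares) and the gate without its Cd3 limit (triangles). By all 3 measures each P3 library lies above each E16.5 library.

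The share was also higher at P3 with barcodes thinned to equal depth and with a leukocyte denominator. The files differ in their lowest barcodes, which thinning does not change. Passing barcodes reached down to 1000 to 1001 UMIs in P3 libraries A, B and D but to no less than 2399 in library C and 2295 to 3736 at E16.5, so the denominators are not alike, and their part in the ratio was not tested. With each barcode thinned to 1000 UMIs, 0.609% ± 0.228 of P3 and 0.0314% ± 0.0188 of E16.5 barcodes were gated, a ratio of 19.4. Of barcodes with a UMI of Ptprc, the common leukocyte antigen CD45, 1.34% ± 0.540 were gated at P3 and 0.149% ± 0.0712 at E16.5, a ratio of 9.03, so part of the ratio over all barcodes went with the share of Ptprc-positive barcodes. Ptprc itself was found in 345 of the 370 gated barcodes at P3 and 29 of the 32 at E16.5.

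The limits of the gate cut through a continuum. Among barcodes that met every other criterion, 235 had no Cd3 UMI and 167 had 1, which is inside, whereas 140 had 2, 99 had 3 and 416 had 4 or more, which is outside. The Cd3 limit thus kept 39.2% of 943 such cells at P3 and 28.1% of 114 at E16.5, where barcodes held more UMIs. Without it, 1.35% ± 0.307 of P3 and 0.106% ± 0.0512 of E16.5 barcodes qualified, a ratio of 12.7. Of the gated cells at P3 27 had 1 Nkg7 UMI, 77 had 2 to 4 and 266 had 5 or more, and 76 had a single receptor gene. The E16.5 cells lay nearer the limit, with 12 of 32 at 1 Nkg7 UMI, 11 at 2 to 4 and 9 at 5 or more, and 18 with a single receptor gene. Outside lay 1988 barcodes with Nkg7 and none of the receptor genes. A strict gate with at least 2 receptor genes and no Cd3 UMI held 161 cells at P3 and 7 at E16.5.

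Genes known from NK cells and ILC1 were far higher in the gated P3 cells than in the pooled other barcodes. Genes were ranked by the lowest ratio over the P3 libraries to the other barcodes of the same library, with 20 CPM added. The leading genes were Ccl5, Gzma, Ms4a4b, Ctsw, Nkg7, Trbc2, Il2rb, Ncr1, S100a4 and Klrd1, of which Nkg7, Il2rb and Ncr1 belong to the gate. They were not particular to gated cells. Cells of the same phenotype outside the Cd3 limit held, as means over the libraries, 17770 CPM of Gzma, 3839 of Ccl5, 505 of Ctsw and 322 of Klrd1. Barcodes with Cd3e held 14230, 2055, 353 and 267 CPM, and 65 of these 90 barcodes were themselves such cells outside the limit. At least 1 of Klrd1, Gzma and Ccl5 was found in 348 of 370 gated cells (94.1%). Since the gate enriches for such cells, levels against the other barcodes are a description, with no test. Levels below are UMIs per 1000000 UMIs (CPM) of the summed gated cells of a library, in the order of libraries A, B, C and D, and are compared between libraries, never between genes.

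Killing machinery was transcribed in all 4 P3 libraries. Gzma (ENSMUSG00000023132, chromosome 13, 113093825 to 113100981, minus strand, GRCm38), the protease granzyme A, measured 7458, 8668, 7174 and 9756 CPM, against 213 CPM in the pooled other barcodes. It was found in 84.3% of gated cells thinned to 1000 UMIs and in 0.826% of B cells thinned likewise. Ccl5 (ENSMUSG00000035042, chromosome 11, 83525778 to 83530518, minus strand), a chemokine stored by NK and T cells, measured 2831, 2826, 3053 and 3368 CPM against 51.9 CPM. Both genes varied little between libraries, and library D was the highest for each. Prf1, the pore-forming perforin, measured 32.8, 100.5, 132.8 and 168.4 CPM against 1.86 CPM, with library A the lowest. Gzmb, granzyme B, measured 560.3, 382.6, 229.6 and 391.7 CPM, highest in the library where Prf1 was lowest. Ctsw, a cathepsin of cytotoxic cells, lay between 407.2 and 439.3 CPM, and Serpinb9, the inhibitor that protects the cell from granzyme B, between 207.1 and 273.6 CPM. All 16 genes of the cytotoxic list were detected in every P3 library, and 13 of them exceeded the other barcodes in all 4. Lamp1, a lysosomal membrane protein of most cells, was the 1 member below them in all 4, at 102.5 to 157.5 CPM against 223 CPM.

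Interferon gamma and chemokine transcripts were found in every P3 library, while cytokines that define other innate lymphoid subsets were at or near 0. Ifng, which encodes interferon gamma, measured 198.2, 218.5, 202.6 and 223.3 CPM against 2.25 CPM. Ltb, a lymphotoxin subunit, measured 247.4, 493.4, 365.7 and 186.7 CPM. The chemokines Ccl3 and Ccl4 split the libraries: Ccl3 measured 240.8 and 79.9 CPM in libraries A and C but 15.4 and 7.32 CPM in B and D. Ccl4 measured 217.9 and 120.4 CPM in A and C but 26.7 and 14.6 CPM in B and D. Il5 and Il13, cytokines of type 2 innate lymphoid cells (ILC2), and Il17a, a cytokine of type 3 cells (ILC3), had no UMI in any gated cell at P3. Il22, another ILC3 cytokine, was found in library A alone, at 1.64 CPM.

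**Figure D2:**
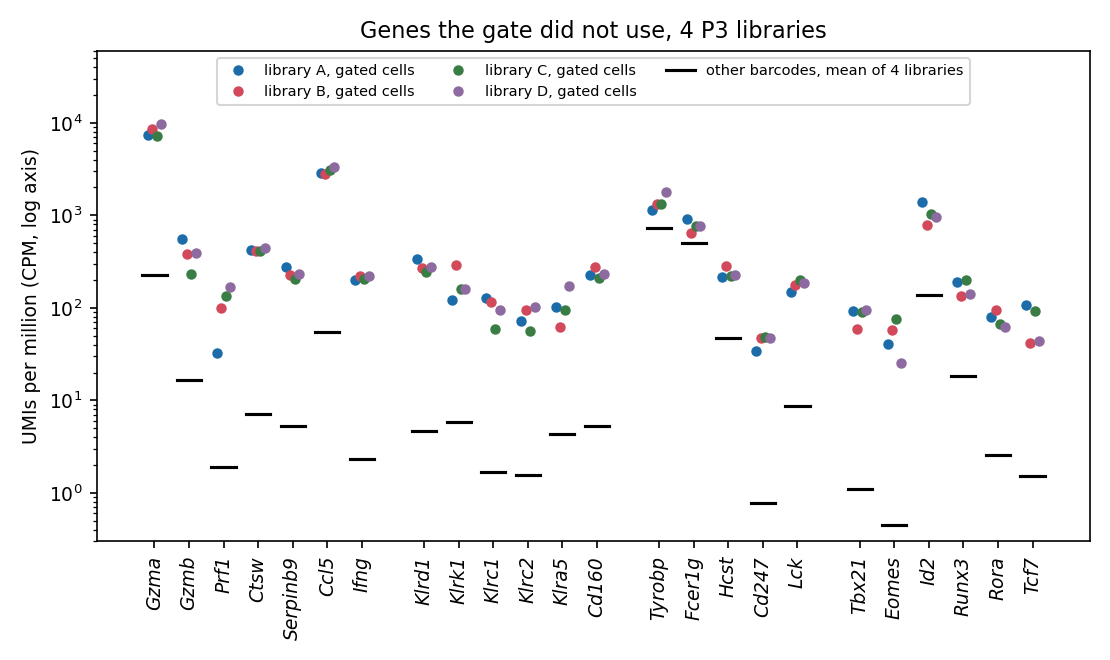
Level in CPM (log axis) of 24 effector, receptor, adaptor and regulator genes that the gate did not use, in the gated cells of each P3 library (coloured points), with the mean of the other barcodes (black bars). Points of the 4 libraries lie together for Gzma, Ccl5, Ctsw and Ifng, and are spread for Prf1, Gzmb and Eomes.

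Receptors of the NK gene complex were present selectively. Klrd1 (CD94), the partner chain of the Klrc lectins, measured 334.2, 269.8, 243.1 and 278.2 CPM against 4.72 CPM in the other barcodes. Its partners Klrc1 (inhibitory NKG2A) and Klrc2 (activating NKG2C) measured 59.6 to 127.8 and 56.3 to 102.5 CPM, lowest in library C. Klrk1 (NKG2D), a receptor for stress ligands, measured 121.2, 292.3, 160.9 and 161.1 CPM. Of 11 Ly49 genes, the polymorphic receptors for class I molecules, Klra5 alone was detected in every P3 library, at 101.6, 61.6, 95.7 and 172.1 CPM. Klra1, Klra4, Klra6, Klra8, Klra10 and Klra17 had no UMI in gated cells at P3, and Klra2, Klra3, Klra7 and Klra9 did not exceed 7.32 CPM. Reads of these near-identical genes may be split or lost in counting, so the single members are uncertain. In single cells, 34 of 370 carried Klra5 with Klrc1, 48 Klra5 alone and 129 Klrc1 alone.

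Klrb1b and Klrb1c were each higher in libraries B and C than in A and D. Klrb1b, an inhibitory receptor, measured 121.0 and 49.5 CPM in libraries B and C but 3.28 and 3.66 CPM in A and D. Klrb1c (NK1.1), a gene of the gate, measured 255.4 and 142.9 CPM in B and C, and 67.2 and 62.2 CPM in A and D. Nkg7 (1089 to 1300 CPM), Il2rb (347.7 to 497.9 CPM) and Ncr1 (301.6 to 482.8 CPM), likewise of the gate, varied less between libraries. Klre1, the remaining receptor gene of the gate, measured 9.83, 68.7, 54.0 and 43.9 CPM, with library A the lowest.

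Adaptors that couple these receptors to kinases were abundant. Tyrobp (DAP12) measured 1152 to 1794 CPM against 756 CPM in the other barcodes, where myeloid cells carry it too. Hcst (DAP10), the adaptor of NKG2D, measured 214.6 to 286.2 CPM against 48.7 CPM. Lck, a kinase shared with T cells, measured 147.4 to 198.1 CPM against 8.46 CPM. Of the 20 genes of the signalling list 18 were found in every P3 library and 16 exceeded the other barcodes in all 4. Tigit, an inhibitory receptor, had no UMI.

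Regulators of both the NK and the ILC1 programme were found. Tbx21 measured 91.7, 59.5, 90.03 and 95.2 CPM, and Eomes 41.0, 57.4, 76.5 and 25.6 CPM. Id2, which opposes B and T cell fates, measured 1399, 779.6, 1038 and 955.5 CPM. Eomes and Tbx21 together were detected in 43 of 370 cells, Eomes alone in 46 and Tbx21 alone in 117. Itga1 (CD49a), known from ILC1, lay between 46.2 and 106.2 CPM, and Itga2 (CD49b), known from NK cells, between 20.5 and 76.9 CPM, with library D highest for both. Both integrins were found in 23 cells, Itga2 alone in 53 and Itga1 alone in 76. At these depths absence of a transcript in a cell is often a sampling zero, and the cells were not divided into NK cells and ILC1.

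The lists of other innate lymphoid subsets summed to more than in the other barcodes, and genes known from late NK maturation were mixed. The ILC3 list summed to 13.3 to 31.1 CPM over its 9 genes, against 3.9 to 5.42 CPM in the other barcodes. The ILC2 list summed to 135 to 157 CPM over its 10, against 11.5 to 18.0 CPM. Of the ILC2 genes 3 exceeded the other barcodes in all 4 libraries and 2 lay below them in all 4. Rora (62.2 to 95.4 CPM) and Gata3 (22.6 to 55.7 CPM) held most of the ILC2 sum, and both are also known in NK cells and ILC1. At least 2 genes of the ILC3 list were detected in 6 of 370 cells. At least 2 genes of the ILC2 list were detected in 54, and 1 gene in 116 more. All 13 genes of the list of late NK cells were found in every P3 library, and the list summed to 7940 to 10900 CPM, mostly Gzma. Of these genes 7 exceeded the other barcodes in all 4 libraries and 3 lay below them in all 4. The effector genes Gzmb and Prf1 are given above, and Spn (CD43) measured 78.99 to 120.8 CPM and Ly6c2 97.9 to 197.7 CPM. Klrg1 measured 1.03 to 18.3 CPM, Itgam (CD11b) 6.75 to 18.3 CPM against 42.5 CPM in the other barcodes, and S1pr5, which is needed for exit to the blood, 2.05 to 7.88 CPM. All 10 genes of the list of earlier stages were found in every P3 library, among them Thy1 (102.5 to 195.8 CPM) and Cd7 (227.0 to 391.6 CPM). Of these 10 genes 7 exceeded the other barcodes in all 4 libraries and 2 lay below them in all 4.

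Jag1 itself and Notch pathway genes were mixed. Jag1 measured 9.83, 2.05, 7.88 and 3.66 CPM in gated cells, values that rest on few UMIs, against a mean of 0.406 CPM in the other barcodes, and was above them in every library. Notch1 measured 13.1, 19.5, 19.1 and 40.3 CPM and Rbpj, the nuclear partner of Notch, 19.7, 52.3, 43.9 and 76.9 CPM. Nrarp, a feedback inhibitor induced by Notch, measured 28.1 to 36.6 CPM in all 4 libraries against 2.83 CPM in the other barcodes. Notch3 and Hey1 had no UMI. Of the 18 genes of the list 4 exceeded the other barcodes in every P3 library and 4 lay below them in every one.

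Transcripts of T cell receptor loci ran through the gated cells. Trbc2 measured 403.0, 556.0, 558.2 and 505.2 CPM and Trbc1 235.9, 259.5, 361.2 and 344.1 CPM. In 278 of 370 cells at least 2 genes of the list of receptor loci were detected. Trac, the constant region of the alpha chain, did not exceed 5.63 CPM, and Cd5, Cd6 and Cd8b1 had no UMI. Cd3e had none either, while Cd3g measured 41.0 to 117.1 CPM under the limit. Pooled over libraries, cells of the same Nkg7 and receptor phenotype outside the Cd3 limit held 794 CPM of Trbc2, 65.9 CPM of Trdc against 10.1 to 47.6 CPM inside, 328 CPM of Klra5 against 61.6 to 172.1 CPM, and 16460 CPM of Gzma. They held 25.3 CPM of Eomes, 37.6 CPM of Tcf7 and 147 CPM of Ifng. The rule used the Cd3 counts, so the 2 sides are shown without a test.

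**Figure D3:**
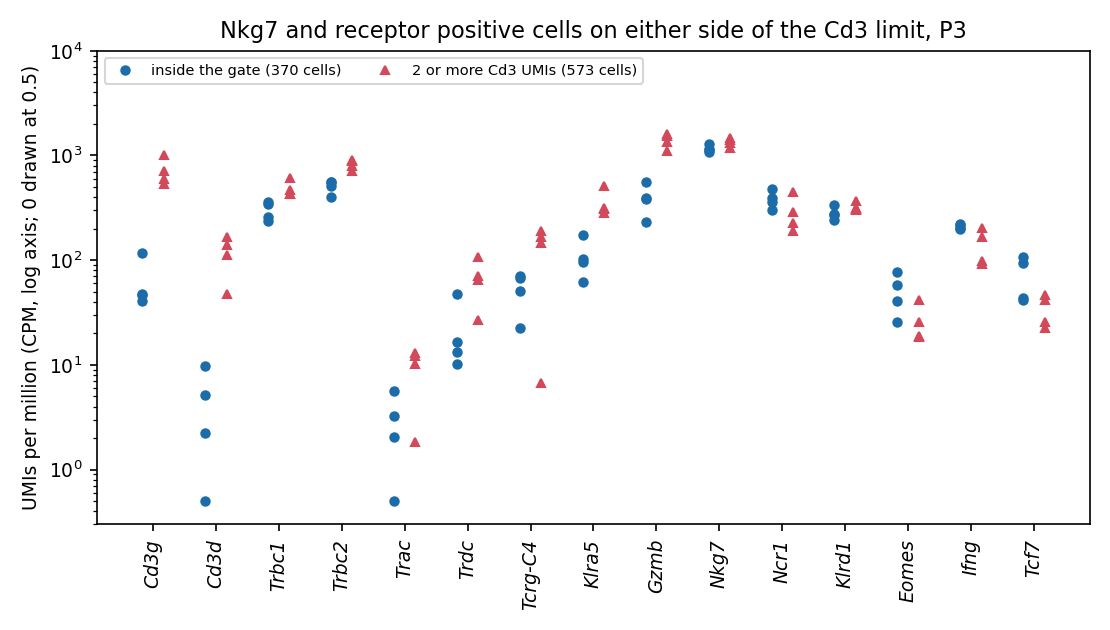
Level in CPM (log axis, 0 drawn at 0.5) of 15 genes in P3 cells with Nkg7 and a receptor gene, inside the gate (circles, 370 cells) and with 2 or more Cd3 UMIs (triangles, 573 cells), 1 point per library. Trbc1 and Trbc2 are high on both sides, while Cd3g and Cd3d, which the rule used, and Klra5 and Gzmb are higher outside.

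A wider comparison at P3 set the gated cells beside all barcodes with at least 2 Cd3 UMIs, no Cd79a and the same granule limit. Of 7469 genes tested 41.3% were called: 1596 (21.4%) were higher and 1491 (20%) lower in gated cells by edgeR's quasi-likelihood test at an adjusted p of 0.05. All 9 tested genes of the neutrophil list were among the lower ones, with a median log2 difference of -4.92, and 90 of the 2190 comparison barcodes held Cd3e, so the contrast is not one with T cells alone. Of those 90 barcodes, 65 also carried Nkg7 and a receptor gene, so most were cells of the gate's phenotype outside its Cd3 limit. A second contrast used the barcodes with Cd3e in the 3 libraries with at least 20 of them. Library B held 6 and was left out. Of 3932 genes 0.407% were called, of which 10 (0.254%) were higher and 6 (0.153%) lower in gated cells. It is not a contrast with T cells in general either. Trdc measured 16.4, 10.1 and 47.6 CPM in gated cells of libraries A, C and D and 642.7, 394.5 and 278.4 CPM in the Cd3e barcodes. Trbc2, Trbc1, Tcrg-C4, Bcl11b and Klra5 were the other 5 lower genes. Ifng measured 198.2, 202.6 and 223.3 CPM in gated cells and 26.5, 54.0 and 12.1 CPM in the Cd3e barcodes. Serpinb9, Serpinb6b, Id2, Itgb1, Pycard, Serpina3g and Ifitm1, Ifitm2 and Ifitm3 were the other higher genes. The Cd3 counts chose both sides of this contrast, and the counts of calls describe it only.

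The few E16.5 cells were uneven in what they expressed. Gzma gave 1, 411, 142, 80 and 312 UMIs in the gated cells, counted in turn in Jag1+/+ replicate 1, in the shared library, in replicate 1 of Jag1Ndr/+ and in replicates 1 and 2 of Jag1Ndr/Ndr. Klrd1 gave 0, 54, 24, 11 and 46 UMIs, and Ncr1 gave 0, 20, 1, 12 and 10. The 3 cells of Jag1+/+ replicate 1 stood apart, with no Klrd1 or Ncr1, and with 17 UMIs of Tcf7 and 14 of Gata3. Tcf7 gave 0 to 2 in the other 4 libraries. The ILC3 list summed to 144 CPM in those 3 cells and to at most 30.8 CPM in the others. Eomes (3 UMIs) and Tbx21 (4 UMIs) were seen in the shared library alone. Any of Klrd1, Gzma and Ccl5 was found in 23 of 32 gated cells (71.9%). In the 82 cells outside the Cd3 limit Eomes gave 37, Tbx21 45 and Gzma 7879 UMIs, so most UMIs of these 3 genes lay beyond that limit.

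Expression was compared between the ages on UMI counts summed per library over gated cells, 5 libraries against 4, with the 12 genes of the gate left out. Of 1768 genes tested, 213 (12%) were called higher at P3 and 238 (13.5%) lower, and 25.5% were called in either direction. A gene was tested where at least 4 libraries reached 83.8 CPM, the limit of the filter on low counts, so a gene could enter through 1 age alone, and its levels then differ by that choice. Of the tested genes 60 stayed below that limit in every E16.5 library, and 47 of them were called higher. Another 58 stayed below it in every P3 library, and 55 of them were called lower. The first set includes Ms4a4b, Ets1, Thy1, Cd2, Cd160, Slamf7, Klrk1 and Il18r1. The second includes Sox4, Mef2c, Adam10, Zfp36, Dusp1, Cd81 and Ctss. The p-values and calls of these genes below are descriptions. The libraries of the ages did not overlap for 15.6% of genes with the higher and 5.77% with the lower values at P3. Leaving out library C brought the count from 451 to 283. The strict gate, with 7 cells in 2 E16.5 libraries, called 64, of which 14 were higher and 50 lower, and 44 were among the 451. Of the named genes it could test, 29 no longer passed there, 14 stayed on the same side of the threshold and 2 turned direction. Ccl5 (1.69, adjusted p = 0.17), Ctsw (1.32, 0.234) and Ifng (0.8, 0.593) were among the 29, while Ms4a4b (2.93, 0.0368) passed. The fitted log2 values are centred on the median gene. On plain CPM with 1 CPM added, the median tested gene was 0.14 higher at P3 in gated cells and 0.66 higher in the other barcodes.

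NK effector and adhesion genes were among those higher at P3. Ccl5 measured 20.8, 460.9, 55.4, 15.7 and 167.1 CPM in the E16.5 libraries, in the order above, and 2832, 2827, 3055 and 3369 CPM at P3, and the groups did not overlap. The fit put this at 4.06 on the log2 scale (SE 0.680, adjusted p = 0.003). Ctsw rose from 89.2 ± 44.6 (SD, n = 5) to 421.3 ± 13.6 CPM (SD, n = 4), or by 1.97 on the log2 scale (SE 0.286, adjusted p = 0.0015). Ms4a4b is a membrane protein of NK and T cells. It measured 20.8, 41.9, 11.1, 0 and 44.6 CPM at E16.5 and 434.3, 570.6, 498.8 and 600.6 CPM at P3. Its fitted log2 value was 4.12 (adjusted p = 0.000436, a description as stated above). With no filter on low counts it was 4.45, in a fit where the median gene stood at 0.2876. Ifng measured 0, 92.2, 44.3, 78.4 and 11.1 CPM at E16.5 and 198.3 to 223.4 CPM at P3 (log2 fold change 1.89, adjusted p = 0.00703). Without the Cd3 limit the log2 fold change of Ifng was -0.192 and that of Ms4a4b 1.08, a step that adds cells at both ages. Ccl5 was found in 34.4% of gated cells at E16.5 and 78.1% at P3, and without that limit in 64.9% and 86.3%. The cytokine list, which includes Ccl5, summed to 82.1 to 931 CPM at E16.5 and 3630 to 3900 CPM at P3 in gated cells. Without the limit it summed to 1210 to 2070 and 3760 to 5260 CPM, a smaller gap between the ages. Gzma measured 20.8, 3445, 1573, 1254 and 3476 CPM at E16.5 and 7178 to 9759 CPM at P3 without overlap, yet its log2 fold change of 1.84 (SE 0.740) did not pass, with an adjusted p of 0.0916. It passed without Jag1+/+ replicate 1, at 1.53 (adjusted p = 0.0122). Klrd1 measured 280.7 CPM at E16.5 and 281.4 CPM at P3 on average, and its log2 fold change of -0.29 had an adjusted p of 0.724.

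Most genes of the NK lists had too few counts to be tested, and the counts that follow support no statement on a list. Of 20 signalling genes 7 were tested, and Tyrobp, Hcst, Lck, Cd160 and Slamf7 were called higher at P3. Lck measured 31.2 CPM at E16.5 and 177.0 CPM at P3 on average. Of 21 homing and adhesion genes 7 were tested, and Thy1, Cd2, Itgb7 and Cd7 were called higher. The Cd7 call was lost on leaving out any 1 of 6 of the 9 libraries, and its groups overlapped. Of 15 cytokine genes 4 were tested, and Ccl5, Ifng and Ltb were called higher. Of 16 cytotoxic genes 7 were tested, with Ctsw and Serpinb9 called higher, and of 24 lineage regulators 5, with Ets1 and Klf2 called higher and Sox4 lower. Klrk1 was the 1 called gene of 4 tested among 15 lectins. Over all 1768 genes 12% were called higher. No gene of the Ly49, ILC2 or ILC3 lists had counts enough to be tested. Without the Cd3 limit, Cd2, Serpinb9, Klf2 and Klrk1 no longer passed.

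Sox4, a factor of progenitors and immature lymphocytes, fell from 163.9 to 31.8 CPM (log2 fold change -2.26, adjusted p = 0.0212), and the Jag1+/+ replicate 1 cells held the highest value, 333.3 CPM. Without that library the log2 fold change was -1.98 (adjusted p = 0.0535), and with any 1 library left out it lay between -2.87 and -1.91. Mef2c, a transcription factor of progenitors, B cells and myeloid cells, measured 150.9 to 658.6 CPM at E16.5 and 14.7 to 39.3 CPM at P3 (log2 fold change -3.83, adjusted p = 0.000438). Progenitor markers moved with both genes, and their 8 genes summed to 90.6 to 369 CPM in gated cells at E16.5 and 28.1 to 55.7 CPM at P3, against 29.6 to 73.6 and 41.1 to 70.2 CPM in the other barcodes. Markers of plasmacytoid dendritic cells summed to 132 to 328 CPM at E16.5 and 65.7 to 107 CPM at P3, against 61.6 to 115 and 140 to 175 CPM. The part of such cells in the fall of Sox4 and Mef2c was not tested. Adam10, a protease that cleaves Notch receptors and the 1 Notch pathway gene with enough counts, fell by 1.70 on the log2 scale (adjusted p = 0.00981). It entered through E16.5 alone, so its p-value is a description, and its groups overlapped. The stress genes Zfp36, Btg2, Dusp1 and Fos were called lower at P3, 4 of 8 tested genes of the dissociation list, where 13.5% of all tested genes were called lower. Zfp36 and Dusp1 entered through E16.5 alone, so their calls are descriptions and the count supports no statement on the list. The groups of Dusp1 overlapped. Fos measured 729.1, 83.8, 177.2, 0 and 434.5 CPM at E16.5 and 50.8 to 102.5 CPM at P3, so that the groups overlapped. Its call was lost on leaving out any 1 of 7 of the 9 libraries, and its log2 fold change was 1.65 in the strict gate. Erythroid genes were called lower in 5 of 8 tested, against the same 13.5%, among them Hbb-bs, Hbb-bt, Slc4a1 and Car2.

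The same direction was common outside the gate. All 213 genes called higher in gated cells were also higher at P3 in the other barcodes on plain CPM, and 168 of the 238 lower genes were also lower. Over all 1768 tested genes the sign was shared by 1141. The median log2 ratio in the other barcodes was 1.41 for the 213 higher genes and -0.305 for the 238 lower ones, beside 0.66 over all tested genes on that scale, so that a positive sign was common there. Atp6v0c, at 0 UMIs in all E16.5 gated cells, measured 1.05 CPM in the other E16.5 barcodes and 408.2 CPM at P3. Timm23 measured 1.89 and 120.1 CPM there. Summed erythroid markers measured 58200 to 203000 CPM in gated cells at E16.5 and 31900 to 94100 CPM at P3, against 296000 to 547000 and 162000 to 241000 CPM in the other barcodes. Summed neutrophil markers measured 215 to 23600 CPM in gated cells at E16.5 and 1750 to 13500 CPM at P3. No gene of the erythroid or the neutrophil list exceeded the other barcodes in all 4 P3 libraries. Macrophage markers summed to 0 to 1750 CPM at E16.5 and 416 to 692 CPM at P3, against 220 to 360 and 1050 to 2100 CPM in the other barcodes. In the shared library and Jag1Ndr/Ndr replicate 2 they reached 1580 and 1750 CPM in gated cells, above the 360 and 315 CPM of the other barcodes. In the remaining E16.5 libraries they did not exceed 43.9 CPM. B cell markers summed to 46.2 to 362 CPM at E16.5 and 57.4 to 147 CPM at P3, against 666 to 983 and 1090 to 1340 CPM in the other barcodes. At E16.5, 6 of the 9 B cell genes were found, Ms4a1 and Pax5 not among them. Of the 32 gated cells 16 held 1 gene of that list and 4 held more. At least 2 genes of the neutrophil list were detected in 30 of 32 gated cells at E16.5 and 333 of 370 at P3. For the monocyte list these were 13 and 157 cells. The part of RNA from other cells in the stage differences was not tested.

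Set against the other barcodes of the same libraries, 12 of 1768 genes (0.679%) differed between the ages, and 283 had an unadjusted p under 0.05. These genes passed the same filter. For Ets1, a transcription factor needed by NK cells that entered through P3 alone, the change in gated cells was 1.79 above that in the other barcodes on the log2 scale (adjusted p = 0.0488), a description for that reason. Ets1 measured 20.8 to 62.7 CPM at E16.5 and 109.8 to 172.1 CPM at P3 in gated cells, without overlap, and 36.8 and 49.2 CPM in the other barcodes. Itgb1, the integrin beta chain that pairs with Itga1 and Itga2, differed by 0.86 (adjusted p = 0.0442), Uqcrq by 0.88, Higd1a by 1.36 and Cox8a by 0.59. Cd69, an activation and residency marker, differed by 1.51, but its gated levels of 183.4 CPM at E16.5 and 161.3 CPM at P3 did not pass the test between ages (log2 fold change -0.39, adjusted p = 0.371), while the other barcodes measured 53.7 and 21.9 CPM. Gabarapl2 differed by 1.19 with gated levels of 180.8 and 149.2 CPM (adjusted p between ages 0.288) against 332.5 and 173.6 CPM in the other barcodes. Higd1a and Cox8a did not pass between ages in gated cells either (adjusted p = 0.0651 and 0.0619). Mef2c (-3.45), Ctss (-3.32), Cd81 (adjusted p = 0.00403), Npc2 (-1.18) and Hmgn1 (-0.87) differed the other way. Mef2c, Ctss and Cd81 entered through E16.5 alone, so their values here are descriptions. Npc2 and Hmgn1 did not pass between ages in gated cells (adjusted p = 0.758 and 0.0642), and Npc2 measured 84.1 and 279.2 CPM in the other barcodes. The log2 fold change of Ctss between ages, -1.79, was 6.57 in the strict gate (adjusted p = 0.319). Ccl5 (0.15, adjusted p = 0.959) and Ifng (-0.02, adjusted p = 0.995) did not pass, and their rise in the gated cells was not shown to differ from that in the other barcodes, where cells outside the Cd3 limit also stood.

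**Figure D4:**
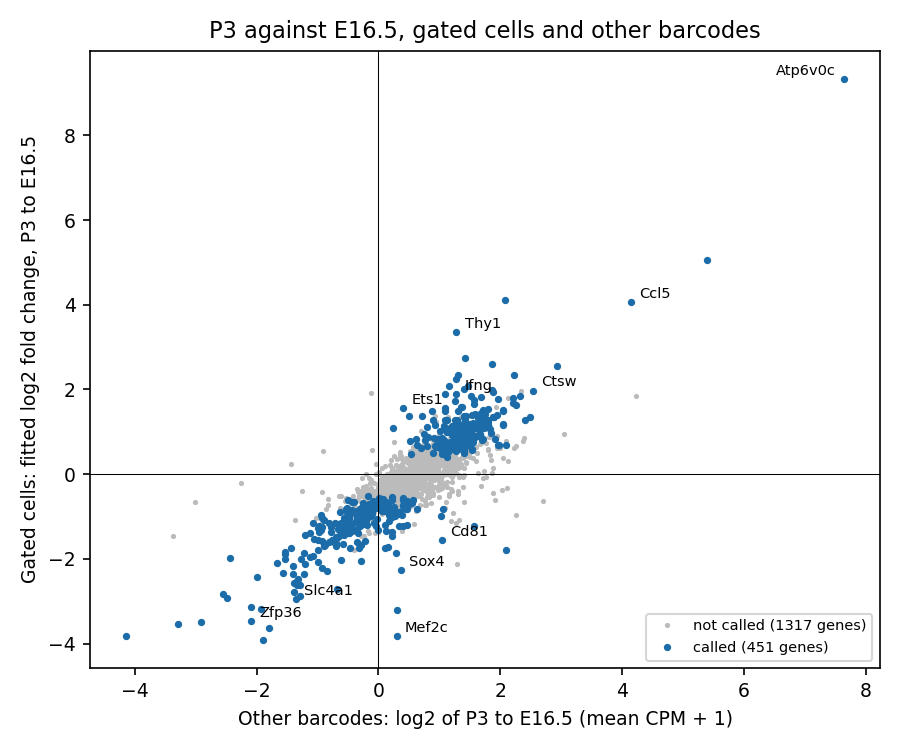
Fitted log2 fold change from E16.5 to P3 in gated cells (vertical axis) against the log2 ratio of mean CPM plus 1 in the other barcodes (horizontal axis) for 1768 genes, with the 451 called genes in blue. Every gene called higher lies to the right of 0, while Mef2c, Sox4 and Cd81 were lower in gated cells and lie right of 0 for the other barcodes, where the median gene is at 0.66. For Sox4 the difference between gated cells and other barcodes did not pass (adjusted p = 0.137).

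Transcripts of dividing cells were found at both ages. After thinning, 34.2%, 51.3%, 66.7% and 57.6% of gated cells in libraries A to D held at least 2 UMIs of the G2M list, and 66.7% to 100.0% in the E16.5 libraries. The means were 52.4% ± 13.7 (SD, n = 4) and 85.0% ± 14.9 (SD, n = 5), and the two-sided exact permutation p was 0.0317. Leaving out any 1 of 7 of the 9 libraries took it to between 0.0571 and 0.0714. Without thinning the pooled shares were 75.9% of 370 cells and 100.0% of 32. The other barcodes moved likewise, from 66.8% ± 10.8 at E16.5 to 43.7% ± 8.46 at P3, and so did the B cells, from 75.0% ± 6.66 to 43.8% ± 15.4. No cycling rate is read from these shares, and the part of free RNA in them was not tested. Of the 13 tested G2M genes Ube2c alone was called, lower at P3, and none of 11 S phase genes was, where 12% of all tested genes were called higher and 13.5% lower.

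No difference by genotype was detectable in the main settings. At E16.5 the share of gated cells was 0.0233% ± 0.00984 (SD, n = 2) in Jag1Ndr/Ndr and 0.0316% ± 0.0232 (SD, n = 3) in the other libraries. The two-sided exact permutation p was 1.0, where 2 against 3 libraries allow no p under 0.2. Of 1479 genes tested, edgeR and DESeq2 called 0 (0%) at an adjusted p of 0.05, with 27 and 12 at an unadjusted p under 0.05. These sums came from 3 to 12 cells a library. A simulation of this design over 1482 genes recovered 45.3% of genes changed by 2 on the log2 scale and 5.71% of those changed by 1. It gave every gene the same spread between libraries and did not draw single cells, so recovery in the real sums may be lower. Gzma gave 80 and 312 UMIs in the 2 Jag1Ndr/Ndr libraries and 1, 411 and 142 in the others, and the groups overlapped. The share difference turned direction after thinning and without the Cd3 limit, and 9 genes were called with no filter on low counts.

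At P3 only 1 library carries the Jag1Ndr/Ndr label alone and 1 the Jag1Ndr/+ label alone, so they are compared without a test. Of 6042 genes with at least 20 UMIs, 199 (3.29%) were at least 2-fold higher in library C (Jag1Ndr/Ndr) and 165 (2.73%) at least 2-fold lower, with 10 CPM added. Of 150 genes of the lists, 6 were higher (Eomes, Bst2, Klrb1b, Ccl3, Ccl4 and Sox4) and 5 lower (Trdc, Ly6e, Klrb1f, Fosb and Itga2). These counts lie near the shares over all genes and support no statement on the lists or the genotype. The intervals below cover counting error only, not the spread between animals, with 1 library on each side. Eomes stood at 76.5 CPM in C (exact Poisson 95% interval 59.4 to 97.0) and at 25.6 CPM in D (10.3 to 52.8). Libraries A and B, of unclear genotype, lay between them at 41.0 and 57.4 CPM. Ly6e, an interferon-responsive membrane protein, stood at 207 CPM (178 to 239) in C but at 546 CPM (461 to 640) in D. Ccl3 reached 79.9 CPM (62.4 to 101) in C against 7.32 CPM (0.887 to 26.4) in D, while libraries A and B lay on both sides at 240.8 and 15.4 CPM. Gated cells held a median of 6392 UMIs in library C and 3572.5 in library D. Hepatocyte genes summed to 269 and 5930 CPM in them. Their part in these differences was not tested.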

How the data were processed

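The deposited files are matrices of UMI counts per gene and barcode, not normalised, made by the authors with Cell Ranger 2.1.1, R 4.1.2 and Seurat per the submitters' processing notes; the file headers name 3.1.0 (E16.5) and 3.0.2 (P3), and the labels name mm10. Aligner settings and barcode filters are not given in the sources used here. Counting on 3′ tags leaves levels of different genes not comparable. Duplicated matrices were merged into 9 libraries, and replicates were compared by shared barcodes before use.

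From these counts the gate, shares and CPM (UMIs per 1000000 UMIs of the summed gated cells) were computed in Python 3.11.15. Stage, genotype and Cd3 contrasts were fitted with edgeR 4.0.16 (quasi-likelihood, TMM, filterByExpr, Benjamini-Hochberg at 0.05; library as a block in the Cd3 contrast), with DESeq2 1.42.0 as an alternative. The 22519 genes common to both gene lists were used between ages. A planned minimum of 20 gated cells per library would have removed every E16.5 library and was dropped, and single P3 libraries kept at least 66 cells. Shares were tested by exact permutation over libraries. B cells are barcodes with at least 3 Cd79a UMIs, no Cd3 UMI and no Nkg7 UMI. Doublets were kept and left out as an alternative (scanpy 1.11.5; 3.67% to 31.8% marked, and 2 gated cells at E16.5 and 40 at P3; in Jag1Ndr/Ndr replicate 1 the automatic threshold marked 0% and the highest scores were taken). The tests were tested on simulated data in which every gene had the same spread between libraries. In the stage design over 1771 genes, 44.2% of changes of 1 and 95.6% of changes of 2 on the log2 scale were recovered. Recovery in the real sums, where genes differ in spread, may be lower. The gate, the lists and the rule for named genes (list members, and outside the lists the 12 called genes in each direction with the largest fold change, at least 50 CPM and no overlap) were chosen with earlier results of these data known. Coordinates are from GENCODE on GRCm38, matched by gene ID, and 2 list genes, Ahsp and Cd244, had no row of that name. Some genes of the lists are not reported here.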

Additional observations from a re-analysis of the deposited data

Results flagged for a closer look

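Single libraries stood apart from the rest of their group for 4 genes, among 112 groups of values checked, and chance alone gives about 1 in 20 such groups by this measure of the gap to the nearest value over the range. Fam220a measured 29.3 CPM in the gated cells of P3 library D and 4.92 to 6.16 CPM in the other P3 libraries. Pfkp, a glycolytic enzyme, measured 132.9 CPM in P3 library C and 84.2 to 91.3 CPM in the others. Sox4 measured 333.3 CPM in the 3 gated cells of E16.5 Jag1+/+ replicate 1 and 99.7 to 144.8 CPM in the other E16.5 libraries. Timm23 measured 22.1 CPM in E16.5 Jag1Ndr/+ replicate 1 and 0 in the other 4, which for sums of 3 to 12 cells is a difference of few UMIs.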

How the results depend on the processing

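The difference in share between the ages kept its direction and its side of the threshold in all 15 alternatives, from 0.4362 to 0.576 points with single libraries left out. The genotype share at E16.5, -0.008273 points, turned to 0.007008 after thinning, to 0.03251 without the Cd3 limit and to 0.00504 without the shared library, and leaving out single libraries gave -0.01613 to 0.00504. The stage difference in the share with G2M transcripts, -32.56 points, was -17.81 with at least 1 UMI (p = 0.0952) and -24.21 in the strict gate (exact permutation p = 0.267), and -37.3 to -26.49 with single libraries left out. The 451 genes called between the ages became 1075 with no filter on low counts (679 higher, 396 lower), 64 in the strict gate (14 higher, 50 lower), 1566 without the Cd3 limit, chosen after seeing the data, and 283 to 490 with single libraries left out. The strict gate turned Ctss to 6.57 and Fos to 1.65. Without the Cd3 limit Ifng was -0.192 and Il18r1 -0.00402. The genotype calls, 0, became 9 with no filter and 0 to 2 with single libraries left out, 2 of them without Jag1Ndr/Ndr replicate 2, and the strict gate could not be fitted. The 3087 genes of the Cd3 contrast became 2037 in the strict gate, 16 against barcodes with Cd3e, and 1905 to 3568 with single libraries left out, lowest without library B, then 1991 without library C. With the replicate number as a block, 390 genes were called between the ages and 0 between genotypes. In the 1 pair that could be checked, same-numbered libraries did not deviate together (r = 0.048 over 3501 genes, wide gate). That check used sums of 14 to 33 cells, 1 of them from the shared library, so it cannot settle whether the numbers pair the samples. The causes of these changes in count were not tested. Leaving out 1 library ended the call of Cd7 in 6 of 9 cases, of Fos in 7, of Il18r1 in 4 and of Sox4 in 2. The number of cells limits the E16.5 results, with 3 to 12 gated cells a library.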

Other observations

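Values for gated cells that belong in none of the comparisons are given here. The 3 gated cells of E16.5 Jag1+/+ replicate 1 held a median of 19396 UMIs, against 7549 over all passing barcodes of that library, and the gated cells of the shared library 7402.5 against 5325. Xcl1, a chemokine that attracts dendritic cells, measured 91.7, 20.5, 56.3 and 43.9 CPM in P3 libraries A to D, so that library A was highest, as for Ccl3 and Ccl4. Tcf7, a regulator of early lymphoid cells, measured 108.1 and 93.4 CPM in libraries A and C and 42.1 and 43.9 CPM in B and D, and Sox4 was likewise higher in A and C, at 49.1 and 65.3 CPM, than in B and D, at 9.23 and 3.66 CPM. These genes were singled out after their values were seen. Among Cd3 and receptor genes, Tcrg-C4 was lowest in library B (22.6 CPM, others 51.2 to 70.5 CPM), and Trdc highest in library D (47.6 CPM, others 10.1 to 16.4 CPM).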
